A study of Bos taurus with 9 samples.

Results

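The glucocorticoid receptor, the genes that carry and activate its hormone, and a set of its usual target genes were followed in the liver of lactating dairy cows. They are 9 genes, *NR3C1*, *HSD11B1*, *SERPINA6*, *FKBP5*, *TSC22D3*, *DUSP1*, *KLF9*, *SGK1* and *ZBTB16*, picked by symbol from the 28786 genes of the count table. All 9 were listed, and all 9 had enough reads to be tested in every comparison. The cows were Holstein, and each gave 1 liver biopsy and 1 poly-A RNA-seq library. In the thermoneutral group (TN), 3 cows were kept without heat load, and their feed was not matched to that of heated cows. In the pair-fed group (PF), 3 cows were kept at the same thermoneutral conditions and offered feed at the reduced intake of the heated cows. In the heat stress group (HS), 3 cows were kept under heat. All groups were sampled after local anesthesia at a skin incision, which the 3 groups share. The age of the cows and the hour of the biopsy are not given in the sources used here, and circulating cortisol was not analysed here.

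Cortisol travels in blood bound mainly to corticosteroid-binding globulin, made in the liver, and it can be regenerated from inactive cortisone inside the hepatocyte. It binds a receptor held in the cytoplasm by heat shock protein chaperones, and the hormone-bound receptor then moves to the nucleus and activates or represses genes. In liver the receptor is known for its role in gluconeogenesis and amino acid breakdown and for restraining inflammation, and several of its targets feed back on the receptor itself.

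The libraries held 16874444 to 22557047 counts. Transcripts of the 13 mitochondrially encoded proteins took 13.6 to 22.2% of the counts in TN, 6.90 to 7.79% in PF and 3.84 to 5.68% in HS cows. TN replicate 1 stood apart: it lay at -60.6 on the first principal component, against -10.8 to 22.9 for the other cows, and its summed level of 8 hepatocyte markers was 14790 CPM against 52605 to 115918 CPM. For the genes described below, a log2 fold change that turned or moved by over 1.5 times without this cow is given with and without it. For *NR3C1* in HS vs TN, only the range over all cows left out in turn is given instead. *ALB* alone gave 8758 CPM of the hepatocyte sum of TN replicate 1. That cow had the lowest *ALB*, *TTR*, *SERPINA1*, *TF* and *CPS1* of all cows. It did not have the lowest *APOA1* (841 CPM, against 276 CPM in TN replicate 2). Its *ASGR1* was 430 CPM, against 419 CPM in HS replicate 1. Its *HNF4A*, at 386 CPM, was above that of the HS cows, at 327 to 379 CPM. All hepatocyte markers were present in every library. In such bulk tissue, fewer cells of a type and less RNA per cell cannot be told apart.

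Levels are given as TMM-normalized CPM, read counts scaled to library depth and composition, which do not correct for gene length and so are compared between cows and not between genes. Each pair of groups was tested over all genes by edgeR (quasi-likelihood F test), the p-values were adjusted after Benjamini and Hochberg (FDR), and a gene was called where the FDR was under 0.1 and the fold change above 1.5. Of all genes tested, 0.0892% were called in HS vs TN, 0.0276% in HS vs PF and 0% in PF vs TN. The last is 0 of 14580 genes, of which 1003 had an unadjusted p under 0.05. None of the 9 glucocorticoid genes was called by edgeR in any of the 3 comparisons. At an unadjusted p under 0.05 there were 2 of the 9 in HS vs TN, 2 in HS vs PF and 0 in PF vs TN, beside 9.36%, 5.32% and 6.88% of all genes. DESeq2, the tool of the study, called 2 of the 9 in HS vs TN, 1 in HS vs PF and 0 in PF vs TN, beside 1.75%, 0.771% and 0.555% of all genes with an adjusted p. The genes concerned were *FKBP5*, higher in HS cows, and *SGK1*, lower in HS cows. These were also the 2 genes whose groups did not overlap in HS vs TN and in HS vs PF, where 16.1% and 10.5% of all genes had no overlap. In PF vs TN, 0 of the 9 and 13.2% of all genes had none. The p-values weigh the difference between groups against the spread between cows, with 3 cows a group. Both tools estimate that spread in part from the other genes. An exact two-sided permutation test of 3 against 3 cannot give a p below 0.1.

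**Figure D1:**
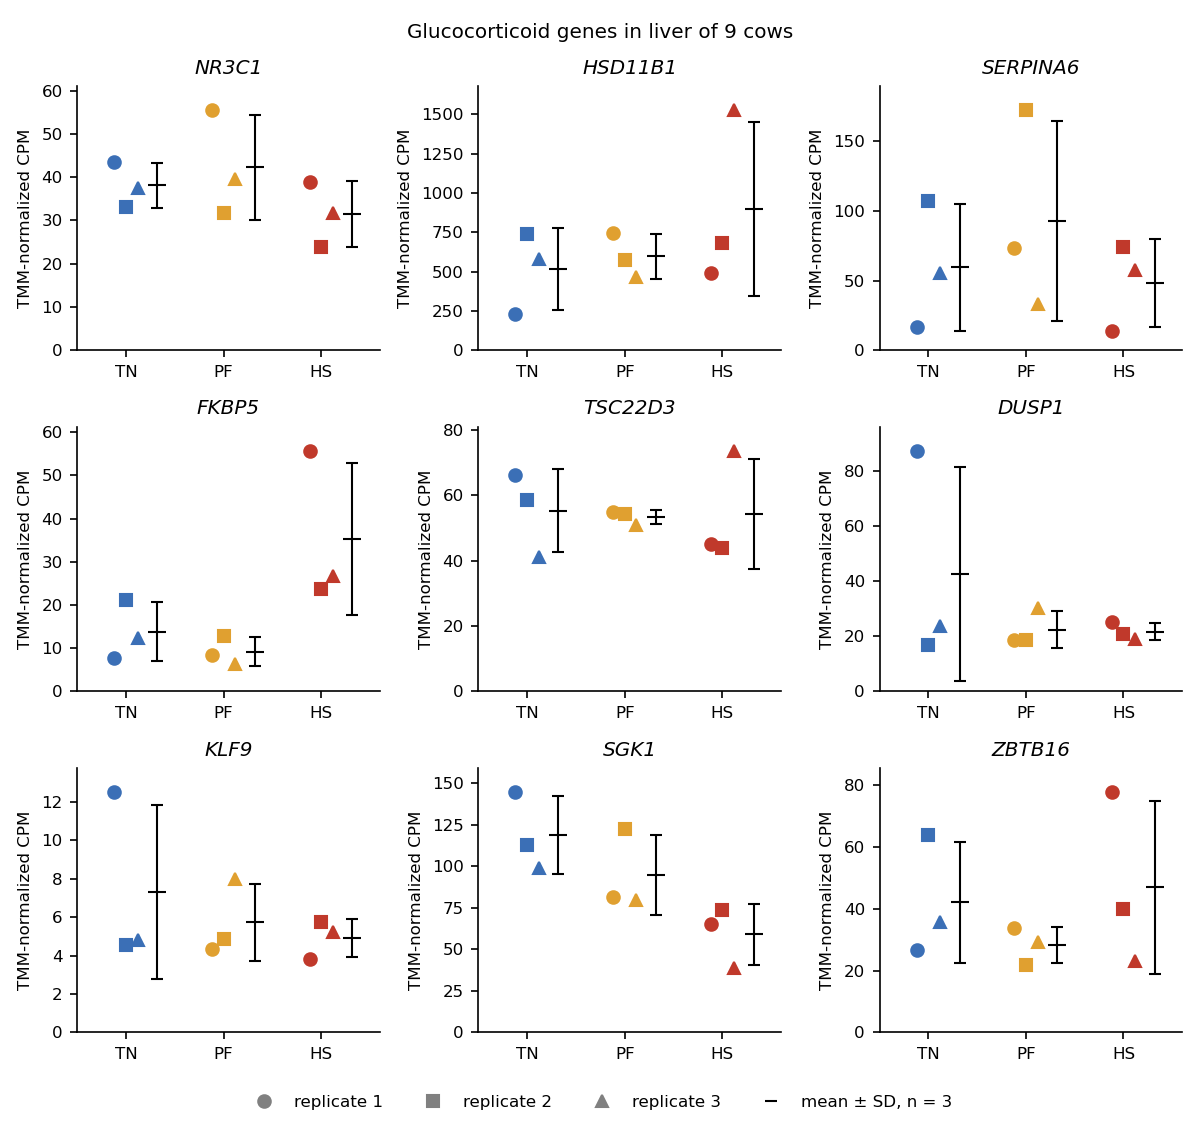
TMM-normalized CPM of the 9 genes in each cow, by group, with a separate linear axis from 0 for each gene. Symbols mark the replicate number and bars the mean ± SD of 3 cows. In the panel of *FKBP5* the HS cows, at 23.7 to 55.7 CPM, lie above all other cows, and in that of *SGK1* they lie below, at 38.5 to 73.7 CPM.

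*SERPINA6* encodes corticosteroid-binding globulin, the plasma carrier of cortisol. Its level was 16.5, 107 and 55.2 CPM in the TN cows, 73.2, 172 and 33.0 CPM in the PF cows, and 13.6, 74.0 and 57.3 CPM in the HS cows. All 3 groups overlapped, and the spread within each was wide, with a 12.7-fold range over the 9 cows, the widest of the 9 genes. Log2 fold changes were -0.31 (SE 0.67, FDR = 0.889) in HS vs TN and -0.95 (SE 0.62, FDR = 1) in HS vs PF. It was 0.64 (SE 0.64, FDR = 0.797) in PF vs TN. The 95% interval of the HS vs TN difference ran from -1.81 to 1.19, so that differences of more than 2-fold either way were not resolved with 3 cows a group. Without TN replicate 1 the HS vs TN value was -0.75 and that of PF vs TN 0.20. Leaving out 1 cow in HS vs PF gave -1.40 (without HS replicate 2) to -0.14 (without PF replicate 2).

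*HSD11B1* encodes the enzyme of the endoplasmic reticulum that turns cortisone back into cortisol. It was read at 228, 737 and 579 CPM in TN, at 748, 577 and 468 CPM in PF, and at 489, 684 and 1528 CPM in HS cows. HS replicate 3 was the highest of the 9 cows and TN replicate 1 the lowest, while the other 7 lay between 468 and 748 CPM, with no order by group. For HS vs TN the log2 fold change was 0.80 (SE 0.55, FDR = 0.634), and it was 0.18 without HS replicate 3 and 0.45 without TN replicate 1. For HS vs PF it was 0.59 (SE 0.41, FDR = 1), and -0.03 without the same cow. For PF vs TN it was 0.21 (SE 0.44, FDR = 0.906), and -0.14 without TN replicate 1. HS replicate 3 also had the highest and TN replicate 1 the lowest summed level of hepatocyte markers. Not every marker followed that sum. In HS replicate 3 *APOA1* was 350 CPM, in a range of 276 to 2006 CPM over the 9 cows. *HNF4A* was 379 CPM there, in a range of 327 to 518 CPM. In TN replicate 1 *APOA1*, *ASGR1* and *HNF4A* were not at their lowest. The part of those markers in the values of *HSD11B1* was not tested.

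*NR3C1* encodes the glucocorticoid receptor itself. It stood at 43.6, 33.2 and 37.6 CPM in TN, at 55.5, 31.7 and 39.6 CPM in PF, and at 38.8, 23.8 and 31.8 CPM in HS cows. The groups overlapped throughout, and the 9 cows spanned a 2.33-fold range. The mean was 38.1 ± 5.20 in TN, 42.2 ± 12.1 in PF and 31.5 ± 7.54 CPM in HS cows (SD, n = 3). The log2 fold change was -0.29 (SE 0.24, FDR = 0.688) in HS vs TN, with a 95% interval from -0.83 to 0.24, and -0.43 (SE 0.27, FDR = 1) in HS vs PF. It was below 0 in both comparisons whichever cow was left out, from -0.47 to -0.12 and from -0.61 to -0.18. PF and TN cows differed by 0.14 on the log2 scale (SE 0.27, FDR = 0.896), and by 0.26 without TN replicate 1.

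*FKBP5* encodes a co-chaperone of HSP90 that lowers the affinity of the receptor for its hormone and is itself among the best-known targets of the receptor. Its level was 7.78, 21.2 and 12.3 CPM in the TN cows, 8.40, 12.9 and 6.37 CPM in the PF cows, and 55.7, 23.7 and 26.6 CPM in the HS cows. Every HS cow lay above every cow of the other groups, and the TN and PF cows overlapped. The gap to the TN cows was narrow, 23.7 CPM in HS replicate 2 against 21.2 CPM in TN replicate 2. HS replicate 1 was at 2.21 times the mean of the other HS cows. The means were 13.8 ± 6.85 CPM in TN, 9.22 ± 3.34 CPM in PF and 35.3 ± 17.7 CPM in HS cows (SD, n = 3). The counts behind these levels ranged from 125 to 1509 per library.

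Against the pair-fed cows, the log2 fold change of *FKBP5* was 1.94 (SE 0.38, 95% interval 1.11 to 2.77), which is 3.84-fold higher in HS. Its unadjusted edgeR p of 0.000316 was the 25th smallest of 14510 genes, and the FDR of 0.183 missed the threshold. By DESeq2 the gene was called, with an adjusted p of 0.000329, and it stayed called in all 6 DESeq2 fits that left out 1 cow, where the adjusted p ranged from 3.57e-05 to 0.0443. By edgeR without a filter on low counts it was called too, with an FDR of 0.00145. Leaving out 1 cow in edgeR gave 1.43 to 2.26, the lowest without HS replicate 1. Whether a call is made thus depended on the tool and the filter, while the direction did not.

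Against the thermoneutral cows, *FKBP5* was 2.56-fold higher in HS, a log2 fold change of 1.35 (SE 0.42, 95% interval 0.42 to 2.29, unadjusted p = 0.00927, FDR = 0.417 by edgeR). DESeq2 called it with an adjusted p of 0.0749, and kept the call in 2 of the 6 fits that left out 1 cow. The call was lost without TN replicate 1, TN replicate 3, HS replicate 1 or HS replicate 3. By edgeR the log2 fold change was 1.08 without TN replicate 1 and 0.86 without HS replicate 1. Between PF and TN cows the log2 fold change was -0.58 (SE 0.39, 95% interval -1.43 to 0.28, FDR = 0.729), and -0.12 without TN replicate 2. The comparisons of HS with TN and with PF share the HS cows.

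*SGK1* encodes a serine/threonine kinase that regulates ion channels and transporters, and its transcription is induced by glucocorticoids, by mineralocorticoids and by cell shrinkage. It was read at 145, 113 and 98.8 CPM in TN, at 81.8, 123 and 79.9 CPM in PF, and at 65.0, 73.7 and 38.5 CPM in HS cows. All HS cows lay below all TN and PF cows, with HS replicate 3 the lowest, while TN and PF overlapped. The gap to the PF cows was narrow, 73.7 CPM in the highest HS cow against 79.9 CPM in the lowest PF cow. The mean was 119 ± 23.5 CPM in TN, 94.7 ± 24.1 CPM in PF and 59.1 ± 18.4 CPM in HS cows (SD, n = 3).

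The log2 fold change of *SGK1* in HS vs TN was -1.03 (SE 0.30, 95% interval -1.71 to -0.35), a level 2.04-fold lower in HS, with an unadjusted p of 0.00719 and an FDR of 0.394 by edgeR. DESeq2 called it with an adjusted p of 0.0823, and kept the call in 1 of 6 fits that left out 1 cow, the one without HS replicate 2. Without TN replicate 1, the highest of the 9 cows, the edgeR value was -0.84. In HS vs PF the log2 fold change was -0.68 (SE 0.30, 95% interval -1.33 to -0.03, unadjusted p = 0.0414, FDR = 0.908), and in PF vs TN it was -0.33 (SE 0.30, FDR = 0.779), or -0.15 without TN replicate 1. *FKBP5* and *SGK1*, both induced by glucocorticoids in many tissues, thus lay on opposite sides in the HS cows.

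**Figure D2:**
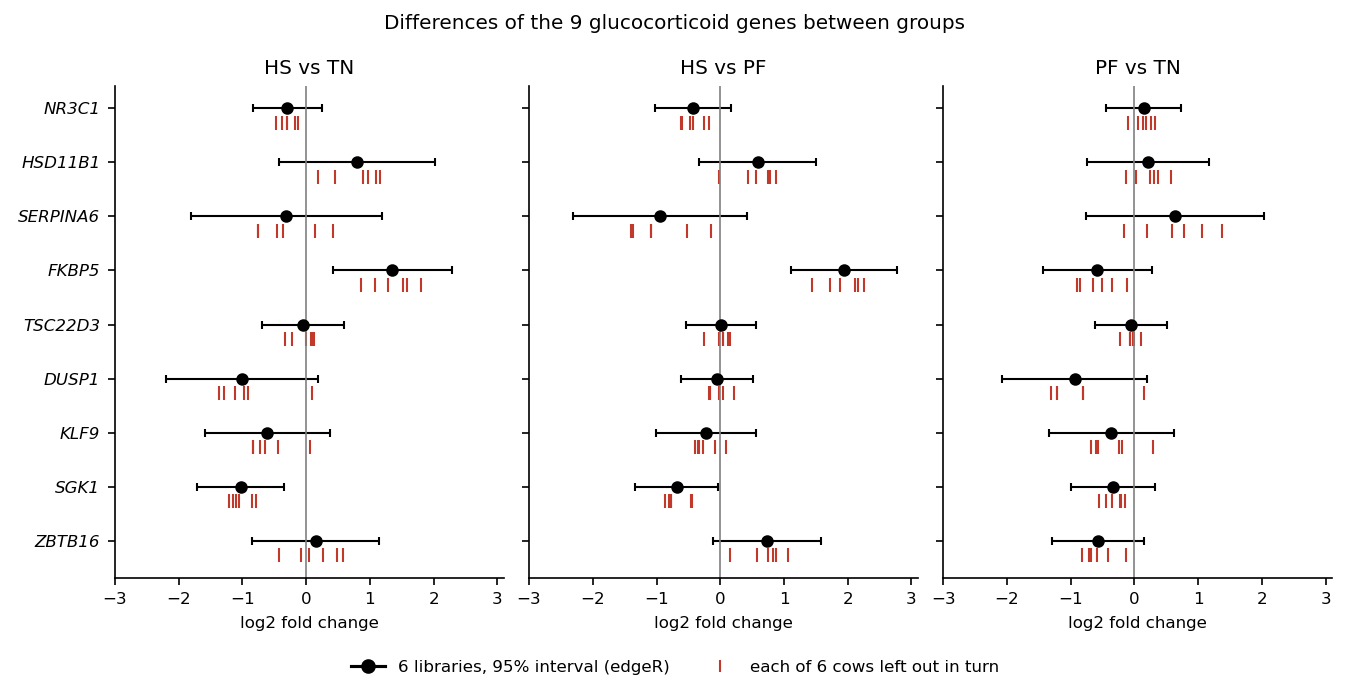
Log2 fold change of the 9 genes in HS vs TN, HS vs PF and PF vs TN from edgeR. Black points and bars show the value of the 6 libraries with its 95% interval, and red ticks the value with each of the 6 cows left out in turn. The intervals of *FKBP5* and *SGK1* leave out 0 in both comparisons with HS, and no interval does in PF vs TN.

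*ZBTB16* encodes PLZF, a zinc finger repressor that is strongly induced by glucocorticoids in many cells. Its level was 26.5, 63.9 and 35.8 CPM in TN, 33.8, 21.9 and 29.2 CPM in PF, and 77.8, 40.1 and 23 CPM in HS cows. The HS cows covered nearly the whole range of the 9, from the highest to the next to lowest level. It had a log2 fold change of 0.73 (SE 0.38, unadjusted p = 0.0821, FDR = 0.96) in HS vs PF and 0.15 (SE 0.44, FDR = 0.923) in HS vs TN. Without HS replicate 1 these values were 0.15 and -0.43, and without TN replicate 1 the latter was -0.08. For PF vs TN it was -0.57 (SE 0.33, FDR = 0.709). HS replicate 1 was the cow with the highest level of both *ZBTB16* and *FKBP5*, and the lowest level of *SERPINA6* and *KLF9*.

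*TSC22D3* encodes GILZ, a leucine zipper protein that mediates much of the anti-inflammatory action of glucocorticoids. It stood at 66.2, 58.6 and 41.2 CPM in TN, at 54.9, 54.4 and 50.8 CPM in PF, and at 45.1, 44.0 and 73.6 CPM in HS cows. The 9 cows spanned a 1.78-fold range, the narrowest of the 9 genes, and the groups overlapped. The log2 differences were -0.05 (SE 0.29, 95% interval -0.69 to 0.59) in HS vs TN, 0.02 (SE 0.25, 95% interval -0.53 to 0.57) in HS vs PF and -0.06 (SE 0.26, 95% interval -0.62 to 0.51) in PF vs TN. Without TN replicate 1 the values against TN were 0.12 for HS and 0.10 for PF cows. Differences of the size seen for *FKBP5* in these 3 comparisons lay outside these intervals, except that of PF vs TN.

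*DUSP1* encodes a phosphatase that switches off MAP kinases, and is induced by glucocorticoids and also within minutes of many stresses. Its level was 87.1, 16.9 and 23.6 CPM in TN, 18.5, 18.5 and 30.05 CPM in PF, and 25.0, 20.9 and 19.2 CPM in HS cows. TN replicate 1 was at 4.30 times the mean of the other TN cows, and the other 8 cows lay between 16.9 and 30.05 CPM. With all cows the log2 fold change was -1.01 (SE 0.53, unadjusted p = 0.0899, FDR = 0.566) in HS vs TN and -0.94 (SE 0.52, unadjusted p = 0.0966, FDR = 0.709) in PF vs TN. Without TN replicate 1 these turned to 0.10 and 0.15. In HS vs PF, which does not use that cow, the log2 fold change was -0.05 (SE 0.26, 95% interval -0.61 to 0.52, FDR = 1). DESeq2 called *DUSP1* in 1 fit, PF vs TN without TN replicate 2 (adjusted p = 0.0960), in which TN replicate 1 was 1 of 2 TN cows left.

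*KLF9* encodes a Krüppel-like transcription factor that answers glucocorticoids and thyroid hormone. It was read at 12.5, 4.57 and 4.83 CPM in TN, at 4.32, 4.86 and 8.0 CPM in PF, and at 3.80, 5.73 and 5.25 CPM in HS cows. As for *DUSP1*, TN replicate 1 was the highest, here at 2.66 times the mean of the other TN cows, and PF replicate 3 came next in both genes. The log2 fold change was -0.61 (SE 0.44, FDR = 0.645) in HS vs TN and -0.36 (SE 0.45, FDR = 0.834) in PF vs TN, and 0.06 and 0.29 without TN replicate 1. In HS vs PF it was -0.23 (SE 0.35, FDR = 1). The counts of *KLF9* were low, 73 to 280 per library, and RefSeq (ARS-UCD2.0) places it over *SMC5*, a gene with 398 to 1390 counts. The strand setting of the counting is not given in the sources used here, so reads of the 2 genes cannot be told apart with certainty.

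Each library had its own profile over the 9 genes. TN replicate 1 had the highest level of *DUSP1*, *KLF9* and *SGK1* and the lowest of *HSD11B1*. HS replicate 3 had the highest level of *HSD11B1* and *TSC22D3* and the lowest of *SGK1*. Over the 9 cows, the Pearson correlation of log2(CPM + 0.5) was highest between *DUSP1* and *KLF9* (r = 0.88), followed by *FKBP5* and *ZBTB16* (r = 0.62), and lowest between *HSD11B1* and *DUSP1* (r = -0.82). TN replicate 1 is at an extreme of both genes in the first and the last of these pairs, and HS replicate 1 in the second. *FKBP5* and *SGK1* had r = -0.51 and *FKBP5* and *NR3C1* r = -0.48. *FKBP5* and *TSC22D3*, both classical targets, had r = -0.15. These correlations describe 9 libraries that share their group differences and their depth.

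The receptor depends on chaperones and works through cofactors, and 18 such genes were followed beside it. None was called by edgeR, and DESeq2 called 2 of the 18, both in HS vs TN, beside 1.75% of all genes. In HS vs TN 11 had a positive and 7 a negative log2 fold change, with a median of 0.16 beside -0.01 over all genes, and 4 of the 18 had an unadjusted p under 0.05, all higher in HS. At that p there were 3 of the 18 in HS vs PF, again all higher in HS, and 0 in PF vs TN. Over all genes the shares at that p were 9.36% in HS vs TN, 5.32% in HS vs PF and 6.88% in PF vs TN. The 4 genes in HS vs TN were the HSP90 genes *HSP90AA1* and *HSP90AB1*, *FKBP4*, which encodes the co-chaperone FKBP52 that aids hormone binding, and *STIP1*, which encodes the adaptor that joins HSP70 and HSP90.

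*FKBP4* stood at 85.2, 163 and 151 CPM in TN, at 169, 238 and 181 CPM in PF and at 260, 292 and 443 CPM in HS cows, with no overlap between any of the 3 groups. Its log2 fold change was 1.31 (SE 0.35, FDR = 0.374) in HS vs TN and 0.75 (SE 0.29, FDR = 0.821) in HS vs PF by edgeR. DESeq2 called *FKBP4* in HS vs TN (adjusted p = 0.00784), in 5 of 6 fits that left out 1 cow and not without HS replicate 3. *HSP90AA1* was 149, 315 and 262 CPM in TN, 412, 450 and 279 CPM in PF and 614, 455 and 827 CPM in HS cows. All HS cows lay above the others, narrowly so above PF replicate 2, and the log2 fold change was 1.37 (SE 0.39, FDR = 0.392) in HS vs TN and 0.73 (SE 0.32, FDR = 0.908) in HS vs PF. DESeq2 called *HSP90AA1* in HS vs TN (adjusted p = 0.00583), again in 5 of 6 such fits and not without HS replicate 3.

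The log2 fold changes of *STIP1* were 0.81 (SE 0.22, FDR = 0.381) in HS vs TN, 0.82 (SE 0.28, FDR = 0.7) in HS vs PF and 0.00 in PF vs TN, where the mean was 40.1 CPM in both groups and the value without TN replicate 1 was -0.10. The HS cows, at 60.0, 71.2 and 81.1 CPM, were above all others. *HSP90AB1* had 0.87 (SE 0.39, FDR = 0.522) in HS vs TN and 0.28 (SE 0.29) in HS vs PF. Of the cofactors, the coactivator gene *NCOA3* had its lowest levels in the HS cows, 19.9 to 24.2 CPM against 24.5 to 32.1 CPM in the other 6 cows, and against TN its log2 fold change was -0.43 (SE 0.20, unadjusted p = 0.0631). *SMARCA4*, the gene of a catalytic subunit of the SWI/SNF remodeler, had -0.45 (SE 0.25, unadjusted p = 0.0988) in PF vs TN. *FKBP4* and *FKBP5*, whose products act in opposite ways on hormone binding, were thus both at their highest in HS cows.

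Of 12 genes listed for the metabolism and transport of corticosteroids, 10 were found under their symbols and 8 could be tested. *HSD11B2*, which encodes the enzyme that inactivates cortisol, and *SRD5A2* had too few counts. None of the 8 was called by edgeR or DESeq2 in any comparison. In PF vs TN, 7 of the 8 had a positive log2 fold change, with a median of 0.52 beside -0.01 over all genes, and 5 of the 8 had no overlap between the groups, beside 13.2% of all genes. The 8 hepatocyte markers, of which *ALB* is on both lists, all had a positive log2 fold change in PF vs TN too, with a median of 0.53, and their part in these values was not tested. An unadjusted edgeR p under 0.05 was reached by 0 of the 8 in HS vs TN, 1 in HS vs PF and 1 in PF vs TN. Over all genes it was reached by 9.36%, 5.32% and 6.88%. *SRD5A1*, whose enzyme reduces cortisol at the start of its breakdown, was 14.2, 30.4 and 25.9 CPM in TN, 54.1, 31.8 and 44.4 CPM in PF and 28.0, 32.2 and 51.9 CPM in HS cows. Its log2 fold change was 0.89 (SE 0.32, unadjusted p = 0.0171, FDR = 0.701) in PF vs TN and 0.66 (SE 0.33, FDR = 0.539) in HS vs TN. Without TN replicate 1 these were 0.63 and 0.41. That cow had the lowest level of *SRD5A1* and the lowest sum of hepatocyte markers.

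*AKR1D1*, which encodes the 5-beta-reductase of the same pathway, was 83.9, 125 and 126 CPM in TN, 199, 168 and 149 CPM in PF and 76.4, 97.1 and 151 CPM in HS cows. The PF cows lay above all TN cows and overlapped with HS replicate 3, and the log2 fold change was 0.62 (SE 0.30, unadjusted p = 0.0603) in PF vs TN and -0.67 (SE 0.29, unadjusted p = 0.0422, FDR = 0.908) in HS vs PF. *ALB*, which encodes the low-affinity carrier albumin, and *SRD5A3* had 1.02 (SE 0.59) and 0.40 (SE 0.27) in PF vs TN, and 0.59 and 0.27 without TN replicate 1. *SULT2A1*, a steroid sulfotransferase gene, had 0.41 (SE 0.44), and *ABCB1*, the gene of an efflux pump that exports cortisol, -0.51 (SE 0.46), both in HS vs TN, and 0.07 and -0.78 without that cow. The genes of the CYP3A family are near copies of each other, and how reads matching several genes were counted is not given in the sources used here, so their values are uncertain and are not set out.

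A wider list of 35 other genes known to respond to glucocorticoids had 34 that could be tested, and none was called by edgeR. In HS vs TN 18 of the 34 had a positive and 16 a negative log2 fold change, with a median of 0.11, and 4 had an unadjusted p under 0.05, 2 in each direction. In HS vs PF 17 were positive and 17 negative, with a median of 0.00 and again 2 genes in each direction. In PF vs TN 18 were positive and 16 negative, with a median of 0.09 and 2 higher and 3 lower genes at that p. The list was therefore split in every comparison. Over all genes, 9.36%, 5.32% and 6.88% had such a p in HS vs TN, HS vs PF and PF vs TN. DESeq2 called 1, 2 and 3 of these 34 genes in HS vs TN, HS vs PF and PF vs TN, beside 1.75%, 0.771% and 0.555% of all genes.

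*ERRFI1*, which encodes an inhibitor of the EGF receptor, was 327, 265 and 336 CPM in TN, 277, 340 and 387 CPM in PF and 126, 192 and 150 CPM in HS cows. The HS cows lay well below all others, with a wider gap than for *SGK1*. Its log2 fold change was -1.01 (SE 0.29, FDR = 0.392) in HS vs TN and -1.11 (SE 0.27, unadjusted p = 0.00200, FDR = 0.405) in HS vs PF by edgeR, and 0.11 (SE 0.31) in PF vs TN. DESeq2 called *ERRFI1* in both comparisons with HS (adjusted p = 0.0303 and 0.00951), in all 6 fits that left out 1 cow against PF and in 3 of 6 against TN, where it was lost without TN replicate 3, HS replicate 1 or HS replicate 3.

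*LPIN1*, which encodes the phosphatidate phosphatase lipin 1 and is induced by fasting, was 107, 166 and 61.1 CPM in TN, 39.7, 32 and 41.9 CPM in PF and 87.1, 72.0 and 84.3 CPM in HS cows. The PF cows were below all others. The log2 fold change was 1.10 (SE 0.22, unadjusted p = 0.000468, FDR = 0.226) in HS vs PF and -1.56 (SE 0.36, unadjusted p = 0.00106, FDR = 0.523) in PF vs TN by edgeR. DESeq2 called both differences of *LPIN1* (adjusted p = 0.00428 and 0.00686), each in all 6 fits that left out 1 cow. Like *FKBP5*, it thus stood higher in HS than in PF cows, but unlike *FKBP5* it had a negative log2 fold change in HS vs TN, -0.47 (SE 0.35).

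*DDIT4*, the gene of an mTORC1 inhibitor, was 124, 41.3 and 44.5 CPM in TN, 24.7, 21.3 and 26.2 CPM in PF and 22.8, 34.5 and 50.5 CPM in HS cows. In PF vs TN its log2 fold change was -1.54 (SE 0.40, FDR = 0.615), and -0.83 without TN replicate 1. DESeq2 called *DDIT4* there (adjusted p = 0.0397), in 3 of 6 fits that left out 1 cow, and lost it without TN replicate 1, PF replicate 1 or PF replicate 2. *ACSL1*, which encodes an acyl-CoA synthetase, had 1.01 (SE 0.31, FDR = 0.693) in PF vs TN and -0.58 (SE 0.25, FDR = 0.908) in HS vs PF, with all PF cows, at 220 to 296 CPM, above all others. DESeq2 called *ACSL1* in PF vs TN (adjusted p = 0.0673), with the same 3 cows deciding the call.

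The other targets with an unadjusted p under 0.05 were not called by either tool. *CEBPB*, the gene of a transcription factor of the acute phase response, and the kinase gene *PIM3* had log2 fold changes of 0.60 (SE 0.21) and -1.09 (SE 0.45) in HS vs TN, and the latter was -0.34 without TN replicate 1. *ZFP36*, which encodes an mRNA-destabilizing protein, had 0.91 (SE 0.35) in HS vs PF. The metallothionein gene *MT2A*, which answers zinc as well as glucocorticoids, had 2.18 (SE 0.96) in HS vs TN and 1.83 (SE 0.75) in PF vs TN, with a range from 16.8 to 899 CPM over the 9 cows and a wide overlap of all groups. Leaving out 1 cow gave 0.68 to 3.41 and 1.35 to 3.06 for these. The clock gene *PER1* had -0.97 (SE 0.41, unadjusted p = 0.0382) in PF vs TN, and -0.56 without TN replicate 1. Of the classical metabolic targets, *PCK1*, the gene of a gluconeogenic enzyme, had means of 1210 ± 128, 1312 ± 414 and 951 ± 273 CPM in TN, PF and HS cows, and *TAT*, the tyrosine aminotransferase gene, 478 ± 58.2, 380 ± 31.7 and 510 ± 225 CPM (SD, n = 3).

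**Figure D3:**
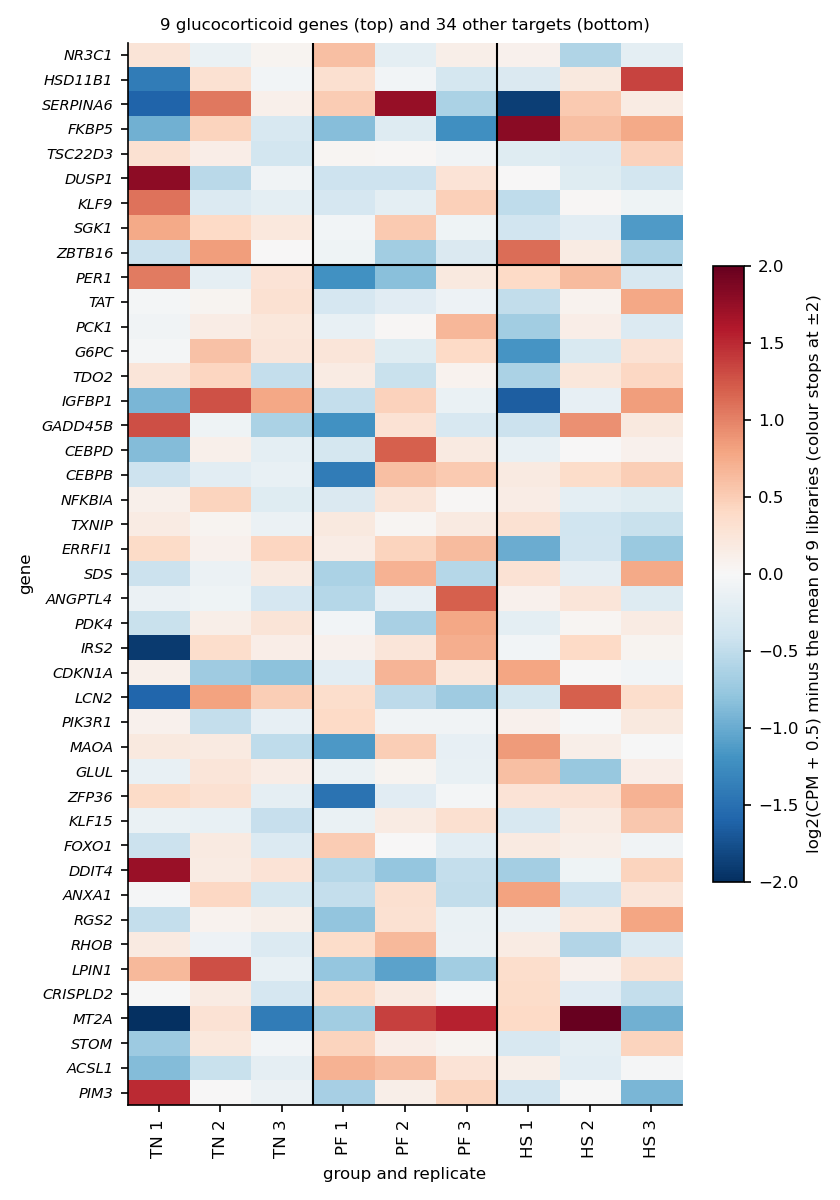
Level of the 9 glucocorticoid genes (above the black line) and of 34 other target genes (below it) in each of the 9 libraries, as log2(CPM + 0.5) minus the mean of the gene over the 9 libraries; the colour scale stops at 2 on either side of 0. *FKBP5* is red and *SGK1* and *ERRFI1* are blue in all 3 HS cows, *LPIN1* is blue in all 3 PF cows, and most other rows show no block by group.

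Immediate early genes, which answer handling and other acute stimuli within minutes, were followed because *DUSP1* and *SGK1* also do so. None of 12 was called by edgeR or DESeq2. In HS vs TN 7 had a positive and 5 a negative log2 fold change, and none had an unadjusted p under 0.05. The smallest p belonged to *MYC* with -0.75 (SE 0.34), *EGR1* with 1.59 (SE 0.73), *JUNB* with 0.53 (SE 0.28) and *JUND* with 0.32 (SE 0.27), of which *JUND* was 0.18 without TN replicate 1. In HS vs PF 10 of the 12 had a positive log2 fold change, with a median of 0.38, and in PF vs TN 9 had a negative one, with a median of -0.34. An unadjusted p under 0.05 was reached by 2 in HS vs PF, both higher in HS, and 2 in PF vs TN, both lower in PF. The shares of all genes at that p were 9.36% in HS vs TN, 5.32% in HS vs PF and 6.88% in PF vs TN. *BTG2* had 0.69 (SE 0.28, unadjusted p = 0.0310) and *JUN* 0.47 (SE 0.31) in HS vs PF. *FOSB* was at most 1.07 CPM in any cow and 0 to 0.306 CPM in PF cows. Its log2 fold changes of 2.53 in HS vs PF and -2.37 in PF vs TN, the largest of the list, rest on 0 to 29 counts per library. In TN replicate 1, where *DUSP1* was highest, the summed level of the 12 genes was 205 CPM, within the 158 to 282 CPM of the other cows. *JUND* (60.8 CPM) and *BTG2* (62.8 CPM) made up most of that sum. Of the 12 genes, *NR4A1* (2.10 CPM), *MYC* (8.94 CPM) and *DUSP5* (8.09 CPM) had their highest level in this cow. *JUND* had its lowest there, and the rest lay between.

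Markers of other cells moved with some of the comparisons. All 8 markers of Kupffer cells and macrophages were higher in every HS cow than in every PF cow, where 10.5% of all genes had no overlap. An unadjusted edgeR p under 0.05 was reached by 7 of the 8, beside 5.32% of all genes, and none was called by edgeR. Their summed level was 1820 to 2894 CPM in HS, 1219 to 1679 CPM in PF and 1234 to 2755 CPM in TN cows. Neutrophil markers, 4 of 6 testable, summed to 42.9 to 131 CPM in HS, 11.1 to 57.4 CPM in PF and 18.9 to 37.7 CPM in TN cows. DESeq2 called 1 macrophage marker (*MARCO*) and 2 neutrophil markers (*S100A9* and *S100A12*) higher in HS than in TN cows, beside 1.75% of all genes. It called none of either list in HS vs PF or PF vs TN, beside 0.771% and 0.555% of all genes. *FKBP5* is expressed in leukocytes as well as hepatocytes. The part of these cells in the level of *FKBP5* was not tested. The sums of T and NK cell markers were 87.4 to 124 CPM in TN, 81.3 to 92.9 CPM in PF and 88.1 to 97.9 CPM in HS cows. Of these 10 markers, 8 had a negative and 2 a positive log2 fold change in HS vs TN, with a median of -0.50, and neither tool called any. *NKG7*, with a mean of 24.5 CPM in TN and 32.2 CPM in HS cows, was 1 of the 2.

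**Figure D4:**
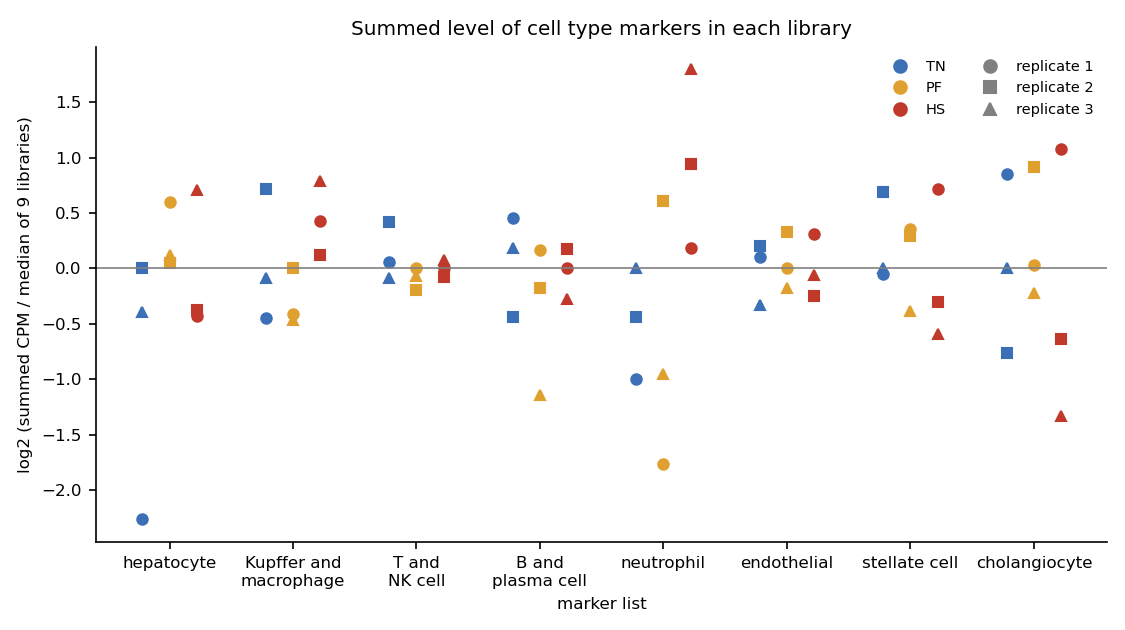
Summed CPM of the marker genes of 8 cell types in each of the 9 libraries, as the log2 ratio to the median library; colours mark the group and symbols the replicate number. TN replicate 1 lies far below the rest in the hepatocyte sum, and the HS cows lie above the PF cows in the macrophage sum.

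The genes whose pattern over the 9 cows was most like that of a given gene were sought among 15073 genes, by Pearson's r of log2(CPM + 0.5). For *FKBP5* they were *TREML2* (r = 0.97), *ADA* (r = 0.96) and *CD38* (r = 0.94), for *SGK1* *FSTL3* (r = 0.94), *CXCL3* (r = 0.93) and *CCDC93* (r = 0.93), and for *NR3C1* *SLC9A7* (r = 0.95), *MTPAP* (r = 0.95) and *USP50* (r = 0.95). *HSD11B1* was closest to *CSNK2A1* (r = 0.98), *NIPSNAP1* and *GUSB*, and *SERPINA6* to *SLIRP* (r = 0.97), *EXOSC4* and *SNRNP27*. *DUSP1* was closest to *MAPK15* (r = 0.97), *ARHGEF25* and *CDKL3*, *KLF9* to *CCDC183* (r = 0.96), *AKAP17A* and *LOC104974749*, *ZBTB16* to *ZNF131* (r = 0.97), *ZNF672* and *BICRAL*, and *TSC22D3* to *MACROD2* (r = 0.91), *PDSS1* and *KPNA6*. Such values are usual with 9 libraries and many genes: the median over all 15073 genes of the highest r was 0.96, and the lowest was 0.86. No gene of the glucocorticoid lists followed here was among the 3 closest of any of the 9.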

How the data were processed

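The authors sequenced poly-A RNA of 9 liver biopsies in paired-end mode and deposited raw read counts per gene. Per the labels and the paper's methods, reads were filtered with fastp 0.23.2, aligned to ARS-UCD1.2 with STAR 2.7.9a and counted with featureCounts 2.0.3. The annotation release, strand setting and treatment of reads matching several genes are not given in the sources used here.

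The labels gave the group of all 9 columns. Groups were compared in pairs, with 6 libraries in a fit, by the quasi-likelihood F test of edgeR 4.0.16 (limma 3.58.1, R 4.3.3) after filterByExpr and TMM scaling, and p-values were adjusted by Benjamini-Hochberg over all genes tested. The SE was the absolute log2 fold change divided by the square root of F. Alternatives were DESeq2 1.42.0, RLE size factors, mitochondrial genes left out, other filters, 1 fit of all 9 libraries, a replicate block, an FDR under 0.05 and each cow left out. DESeq2 with each cow left out was added after seeing the data. The fits were first tested on simulated counts. Levels are TMM-normalized CPM of the 9 libraries.

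The 9 genes and all lists were chosen with earlier results of these data known. In each pathway list and the immediate early list, called genes and the 4 genes with the smallest p per comparison are named, except 1 gene that is not reported here; *PCK1*, *TAT*, *PER1* and *NCOA3* were named after their values were seen. For each of the 9 genes, the 3 genes with the highest r are named. RefSeq of ARS-UCD2.0 served only for symbols, of which 24722 matched, and for overlaps. Sequences are not shown.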

Additional observations from a re-analysis of the deposited data

How the results depend on the processing

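Of the 9 glucocorticoid genes, the count called by edgeR was 0 in all 3 comparisons. It became 2 in HS vs TN with DESeq2 (*FKBP5*, log2 fold change 1.37, and *SGK1*, -0.999) and 1 in HS vs PF with DESeq2 or with no filter on low counts (*FKBP5*, 1.93 and 1.95); every other alternative gave 0. With DESeq2 and 1 cow left out, the count ranged from 0 to 2 in HS vs TN and from 0 to 1 in PF vs TN, and the log2 fold change from 0.90 to 1.83 for *FKBP5* and from -1.18 to -0.78 for *SGK1* in HS vs TN. The 18 receptor complex and cofactor genes held 2 calls with DESeq2 in HS vs TN, where 1.75% of all genes with an adjusted p were called. The 34 other targets held 1, 2 and 3 with DESeq2 in HS vs TN, HS vs PF and PF vs TN, and 1 and 3 in the last 2 with no filter.

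Over all genes, 13 calls in HS vs TN became 270 with DESeq2, 124 with no filter, 4 with all 9 libraries in 1 fit, 0 at an FDR under 0.05 (of 1365 genes at an unadjusted p under 0.05) and 0 to 39 with 1 cow left out (39 without TN replicate 2, 0 without HS replicate 2). The 4 calls in HS vs PF became 122, 98, 8 with RLE size factors, 8 without mitochondrial genes and 5 to 10 with 1 cow left out (10 without PF replicate 3). The 0 calls in PF vs TN became 91, 136, 1 with at least 10 counts in every sample and 0 to 14 with 1 cow left out (14 without TN replicate 2). Leaving out 1 cow turned the sign of uncalled values, which then ranged as follows. In HS vs TN they were -0.75 to 0.42 for *SERPINA6*, -0.33 to 0.12 for *TSC22D3*, -1.37 to 0.10 for *DUSP1*, -0.84 to 0.061 for *KLF9* and -0.43 to 0.58 for *ZBTB16*. In HS vs PF they were -0.027 to 0.88 for *HSD11B1*, -0.26 to 0.15 for *TSC22D3*, -0.17 to 0.22 for *DUSP1* and -0.39 to 0.090 for *KLF9*. In PF vs TN they were -0.10 to 0.32 for *NR3C1*, -0.14 to 0.57 for *HSD11B1*, -0.17 to 1.37 for *SERPINA6*, -0.23 to 0.10 for *TSC22D3*, -1.30 to 0.15 for *DUSP1* and -0.68 to 0.29 for *KLF9*. The causes were not tested.

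The paper matched the intake of PF cows to HS counterparts, and the labels do not say whether the replicate numbers pair cows. Over the 3 pairs of groups, deviations from the group means were correlated at -0.22 to 0.24 in same-numbered cows and at -0.31 to 0.30 in different-numbered cows. Between HS and PF cows, which the matching concerns, these ranges were -0.22 to 0.04 and -0.14 to 0.30. With 3 cows a group and ranges that overlap, these values cannot decide whether cows were paired by number. With the number as a replicate block, the calls over all genes were 33 in HS vs TN, 6 in HS vs PF and 1 in PF vs TN, none of the 9 genes was called, and *TSC22D3* had -0.024 in HS vs PF. The lowest count of any of the 9 genes in a library was 73, for *KLF9*, whose values rest on the fewest reads.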
